A study of Homo sapiens with 208 samples.

Results

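A set of 10 genes of the oxidative stress response were followed through 8 time courses of lung adenocarcinoma cells. They are the transcription factor gene NFE2L2, which encodes NRF2, the antioxidant genes NQO1, HMOX1, GCLC, GCLM, TXNRD1 and SRXN1, and the aldo-keto reductase genes AKR1B10, AKR1C1 and AKR1C3. They were chosen by name, and every array probe whose accession belonged to any of them was taken. This gave 13 probes of the 41000 on the array, and the 10 genes are among the 13263 that were bright enough to be tested. AKR1C1 had 3 probes, AKR1B10 had 2 and each of the other genes had 1. All 13 probes were well above background on every array of the 8 courses.

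Expression was measured on one-colour arrays, and a level is the log2 of the quantile-normalized fluorescence intensity. PC9 is a human lung adenocarcinoma line that carries an activating deletion in EGFR and is sensitive to gefitinib, an inhibitor of the EGFR kinase. PC9M2, named PC9GRM2 in the labels, is a gefitinib-resistant line derived from PC9 by long culture with the drug, and it is 1 clone, which lacked MET amplification and a known resistance mutation of EGFR. Cells of each line were starved for 48 h and received no treatment, 100 ng/ml EGF, 0.5 uM gefitinib, or EGF and gefitinib together. RNA was taken at 26 time points (0 h, 0.5 h and each hour from 1 h to 24 h), with 1 array per time point in each of the 8 courses. Courses were compared at matched time points by limma's moderated paired test with Benjamini-Hochberg adjustment over all 13263 genes, and a gene is called higher or lower at an adjusted p below 0.05. These p-values therefore measure the spread between time points of a single culture series, not between cultures.

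NRF2 is a transcription factor that is held in the cytoplasm by KEAP1, an adaptor of a CUL3 ubiquitin ligase that marks it for degradation. Oxidants and electrophiles modify KEAP1, NRF2 then accumulates, pairs with a small MAF protein and binds antioxidant response elements near its target genes, where BACH1 competes with it. Its activity is set largely at the level of the protein, so that the NFE2L2 mRNA and the target mRNAs need not move together. Many lung cancers carry a constitutively active NRF2 pathway, and AKR1B10 and the AKR1C genes are among its most abundant targets there.

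The promoter windows of GCLM and SRXN1, which fell with gefitinib in both lines, and of TXNRD1 are shown for the response element that NRF2 is known to bind. They come from RefSeq on GRCh38.p14, run from 250 bases before to 50 bases after a transcription start, and were held for 8 of the 10 genes (11 windows). The letters TGACNNNGC, the core of the element, were searched on both strands, and matches are in capitals. The TGAC of this core is shared with the AP-1 element. The core was found in 3 of the 11 windows, 1 of GCLM and both of TXNRD1, against 13.3% of all 35116 windows. By gene this was 2 of 8, against 16.1% of all 27305 genes with a window. It was not in the windows of NFE2L2, NQO1, GCLC, SRXN1, AKR1C1 and AKR1C3. Sequence outside the windows was not searched, so a gene without a match here may hold the element elsewhere. The GCLM window lies at chr1:93909381-93909680 on the minus strand, with the match on the opposite strand 34 bases upstream of the start. The TXNRD1 windows lie on the plus strand at chr12:104215529-104215828, with matches that begin 99 and 8 bases upstream, and at chr12:104286782-104287081, with a match 102 bases upstream. The SRXN1 window lies at chr20:653151-653450 on the minus strand and is shown because its gene moved together with GCLM.
GCLM: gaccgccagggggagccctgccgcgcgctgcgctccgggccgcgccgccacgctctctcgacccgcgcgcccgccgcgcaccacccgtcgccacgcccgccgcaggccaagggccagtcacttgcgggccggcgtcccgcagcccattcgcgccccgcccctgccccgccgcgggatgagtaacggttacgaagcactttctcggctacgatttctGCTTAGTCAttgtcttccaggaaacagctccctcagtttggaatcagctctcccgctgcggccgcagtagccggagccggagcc
TXNRD1, start 1: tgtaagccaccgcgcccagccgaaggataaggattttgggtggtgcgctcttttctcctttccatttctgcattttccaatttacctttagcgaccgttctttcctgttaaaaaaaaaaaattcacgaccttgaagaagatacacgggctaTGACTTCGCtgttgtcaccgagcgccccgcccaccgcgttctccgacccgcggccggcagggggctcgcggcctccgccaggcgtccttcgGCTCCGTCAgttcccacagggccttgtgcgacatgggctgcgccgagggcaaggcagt
TXNRD1, start 2: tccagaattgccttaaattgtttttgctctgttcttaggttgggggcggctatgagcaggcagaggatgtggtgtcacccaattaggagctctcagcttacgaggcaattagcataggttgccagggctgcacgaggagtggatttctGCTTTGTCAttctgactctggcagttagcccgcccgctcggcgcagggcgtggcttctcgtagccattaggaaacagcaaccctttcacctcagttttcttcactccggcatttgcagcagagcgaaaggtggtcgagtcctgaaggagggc
SRXN1: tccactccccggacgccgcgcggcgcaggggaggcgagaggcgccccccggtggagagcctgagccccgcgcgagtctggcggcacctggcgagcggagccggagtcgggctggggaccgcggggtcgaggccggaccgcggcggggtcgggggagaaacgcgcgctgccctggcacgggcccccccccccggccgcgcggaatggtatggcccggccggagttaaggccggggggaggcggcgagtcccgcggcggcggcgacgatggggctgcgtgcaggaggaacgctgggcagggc

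Several features of the arrays bear on all values below. The arrays labelled EGF and EGF with gefitinib of PC9M2 at 0.5 h went against their labels. DUSP6, a feedback phosphatase whose mRNA follows ERK signalling, was at 7.75 on the array labelled EGF and at 12.54 on the array labelled with the drug. None of the 7 genes used to check the drug was lower with gefitinib there, against 5 to 7 of 7 at every other time point of that comparison. Arrays labelled 0 h already differed by drug. DUSP6 was at 9.32 with gefitinib and 12.82 untreated in PC9, and at 7.76 and 12.13 in PC9M2. The 0 h drug arrays are therefore not a baseline before the drug, and all times are those of the labels. The untreated PC9M2 array at 11 h correlated least with its own course (median r = 0.921, next lowest of all arrays 0.943), and it held the lowest untreated PC9M2 value of 4 of the 10 genes, NFE2L2, NQO1, TXNRD1 and AKR1C1. Arrays came 4 to a slide, and a slide carried every treatment of a line and time point, always in the same places, so position and treatment cannot be told apart. The lines shared no slide and no scan day, and PC9 arrays saturated near 65526 while PC9M2 arrays were read to 779239, so line and scan period cannot be told apart. In PC9, saturated spots touched SRXN1 (2 untreated arrays), AKR1B10 (10 untreated and 6 gefitinib arrays) and AKR1C3 (12 and 9), and they were kept. The 2 AKR1C1 probes not used in the main values were saturated too, on 7 and 17 untreated and 6 and 10 gefitinib arrays of PC9. Epithelial markers were well above background in both lines (6 of 6), as were 2 of 4 lung lineage markers, 2 of 3 endothelial markers and 2 (PC9) or 1 (PC9M2) of 3 leukocyte markers, while the pan-leukocyte gene PTPRC and both measured fibroblast markers were not. As these are bulk samples, fewer cells with a transcript and less transcript per cell cannot be told apart.

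**Figure D1:**
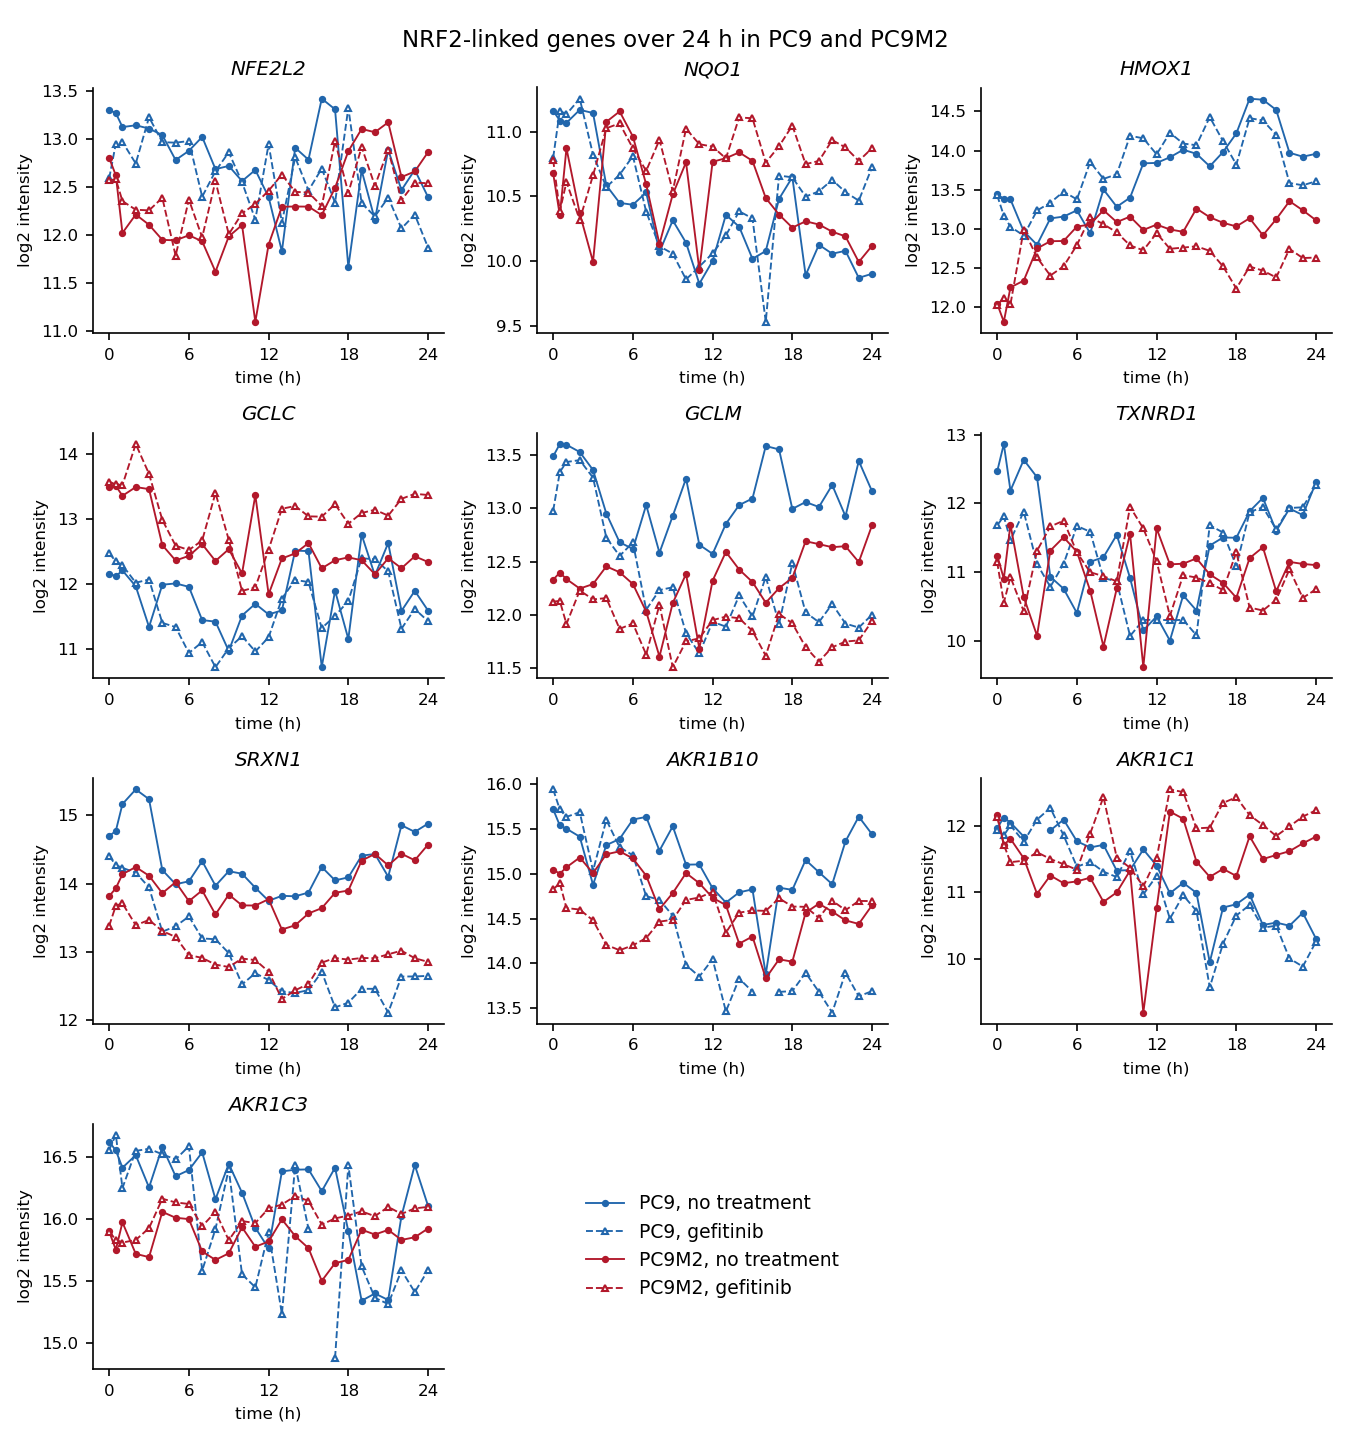
Levels of the 10 genes (log2 intensity, y axis) against time (h, x axis) without EGF, with 1 array per point. PC9 is blue and PC9M2 red, solid lines are untreated cells and dashed lines cells with gefitinib, and a break in a line is a spot removed as an outlier. SRXN1 runs lower with gefitinib in both lines, GCLC lies highest in PC9M2 with gefitinib, and HMOX1 rises from about 12.0 at 0 h in PC9M2 but starts at 13.44 in PC9.

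The first question was how the drug changed these genes in the sensitive line. In PC9, gefitinib lowered 5 of the 10 genes, SRXN1, AKR1B10, GCLM, AKR1C3 and AKR1C1, raised none, and left 5 uncalled. Of all genes tested, 35.1% were called higher and 37.2% lower in this comparison, so a share of 5 in 10 was near the background. The median difference of the 10 genes was -0.20 on the log2 scale, against -0.02 over all genes. As a check of the drug, DUSP6 was lower at 26 of 26 time points, by a mean of -6.80 on the log2 scale.

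SRXN1, which encodes sulfiredoxin, the enzyme that reduces overoxidized peroxiredoxins, fell most. Its level ran from 13.75 to 15.38 with a median of 14.19 in untreated PC9 cells, and from 12.11 to 14.41 with a median of 12.67 with gefitinib. Every gefitinib array was below the untreated array of the same time point, although the ranges overlapped. The mean difference was -1.36 ± 0.11 (SE, n = 26 time points), a 2.57-fold lower level, with an adjusted p of 9.44e-12 by limma.

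GCLM encodes the modifier subunit of glutamate-cysteine ligase, the enzyme that limits glutathione synthesis. Its level ran from 12.57 to 13.60 (median 13.05) without the drug and from 11.64 to 13.45 (median 12.14) with it. It was lower at 25 of 26 time points, by -0.76 ± 0.10, which is 1.69-fold, with a limma adjusted p of 6.98e-08. The catalytic subunit gene GCLC was not called in this comparison, although with EGF in both arms it was called lower in PC9 (-0.25). GCLC ran from 10.73 to 12.76 (median 11.90) untreated and from 10.73 to 12.47 (median 11.57) with gefitinib, with a difference of -0.17 and an interval from -0.35 to 0.01.

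AKR1B10 encodes an aldo-keto reductase that reduces aldehydes and retinal. Its level ran from 13.88 to 15.72 (median 15.21) in untreated PC9 cells and from 13.45 to 15.94 (median 13.98) with gefitinib. The drug arrays covered both ends of the scale, with high values early and low values late. The mean difference over 25 time points was -0.79 ± 0.13, lower at 19 of 25, with a limma adjusted p of 7.54e-06, and the second AKR1B10 probe gave -0.83. Without saturated spots the difference was -1.11. Successive differences of this gene were strongly correlated (lag-1 correlation 0.90), and with the variance inflated for that the adjusted p was 0.24.

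AKR1C1 and AKR1C3 encode hydroxysteroid dehydrogenases that also reduce carbonyls. AKR1C1 ran from 9.95 to 12.12 (median 11.33) untreated and from 9.58 to 12.27 (median 11.10) with gefitinib. Paired by time it was lower at 23 of 25 time points, by -0.22 ± 0.06 (limma adjusted p 0.0018), and its other 2 probes gave -0.29 and -0.20. AKR1C1 has close paralogs, among them AKR1C2, so that its probes may also bind their transcripts. AKR1C3 ran from 15.34 to 16.63 (median 16.37) untreated and from 14.88 to 16.68 (median 15.92) with the drug. Its difference was -0.24 ± 0.10 (limma adjusted p 0.032), but it was 0.02 with 75th percentile scaling and 0.05 with normexp background correction, neither called.

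The other members of the antioxidant group gave differences within the spread between time points in PC9. NFE2L2 itself ran from 11.66 to 13.42 (median 12.78) untreated and from 11.87 to 13.32 (median 12.63) with gefitinib, and differed by -0.16 with an interval from -0.36 to 0.05. NQO1, the quinone reductase often used as a readout of NRF2, ran from 9.83 to 11.17 (median 10.29) and from 9.53 to 11.26 (median 10.54), and differed by 0.12 (interval -0.03 to 0.26). For HMOX1, the inducible heme oxygenase, the ranges were 12.80 to 14.66 (median 13.82) and 12.92 to 14.43 (median 13.76), and the difference was 0.08 (-0.08 to 0.24). TXNRD1, the cytosolic thioredoxin reductase, ran from 10.00 to 12.86 (median 11.50) and from 10.07 to 12.26 (median 11.52), and differed by -0.19 (-0.40 to 0.03).

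In the resistant line the same drug gave a mixed response. In PC9M2, gefitinib raised 4 genes, GCLC, AKR1C1, NQO1 and AKR1C3, lowered 3, SRXN1, GCLM and HMOX1, and left NFE2L2, TXNRD1 and AKR1B10 uncalled. The background was 32.6% higher and 34.2% lower of all genes, and the median difference of the 10 genes was 0.06, against -0.01 over all genes. DUSP6 was lower at 26 of 26 time points here too, by -2.17, a smaller difference than in PC9 (limma adjusted p 1.64e-08 for the difference of the effects). On the PC9M2 gefitinib arrays it stood at 7.76 at 0 h and at 11.69 at 24 h.

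SRXN1 and GCLM fell in PC9M2 as in PC9. SRXN1 ran from 13.33 to 14.57 (median 13.88) untreated and from 12.31 to 13.71 (median 12.91) with gefitinib, lower at 26 of 26 time points, by -0.95 ± 0.07 (limma adjusted p 4.31e-12). GCLM ran from 11.61 to 12.84 (median 12.34) and from 11.51 to 12.23 (median 11.92), lower at 24 of 26, by -0.46 ± 0.07 (limma adjusted p 1.81e-06). For both genes the 2 courses overlapped in range.

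HMOX1 fell less. It ran from 11.82 to 13.35 (median 13.04) untreated and from 12.03 to 13.15 (median 12.68) with gefitinib, and was lower at 23 of 26 time points, by -0.29 ± 0.06 (limma adjusted p 0.00025). The heme oxygenase gene was thus lower in most drug arrays although both courses climbed from near 12.0 at 0 h.

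GCLC and GCLM, the 2 subunits of a single enzyme, moved in opposite directions in PC9M2. GCLC ran from 11.85 to 13.51 (median 12.42) untreated and from 11.90 to 14.15 (median 13.12) with gefitinib. It was higher at 24 of 26 time points, by 0.45 ± 0.10, which is 1.36-fold (limma adjusted p 0.00035). The largest exception was 11 h, at -1.41, where the untreated array stands apart from its course. AKR1C1 ran from 9.20 to 12.21 (median 11.41) and from 11.09 to 12.55 (median 11.92), higher at 23 of 26 time points, by 0.49 ± 0.09 (limma adjusted p 4.39e-05). Its other 2 probes gave 0.48 and 0.32.

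NQO1 and AKR1C3 rose by smaller amounts. NQO1 ran from 9.93 to 11.16 (median 10.43) untreated and from 10.32 to 11.11 (median 10.87) with gefitinib, higher at 20 of 26 time points, by 0.33 ± 0.07 (limma adjusted p 0.00015). AKR1C3 ran from 15.50 to 16.06 (median 15.84) and from 15.81 to 16.19 (median 16.04), higher at 24 of 26, by 0.19 ± 0.04 (limma adjusted p 4.18e-05). None of the PC9M2 arrays was saturated for AKR1C3. The uncalled genes gave 0.11 for NFE2L2 (interval -0.05 to 0.28), 0.01 for TXNRD1 (-0.25 to 0.27) and -0.14 for AKR1B10 (-0.34 to 0.05).

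**Figure D2:**
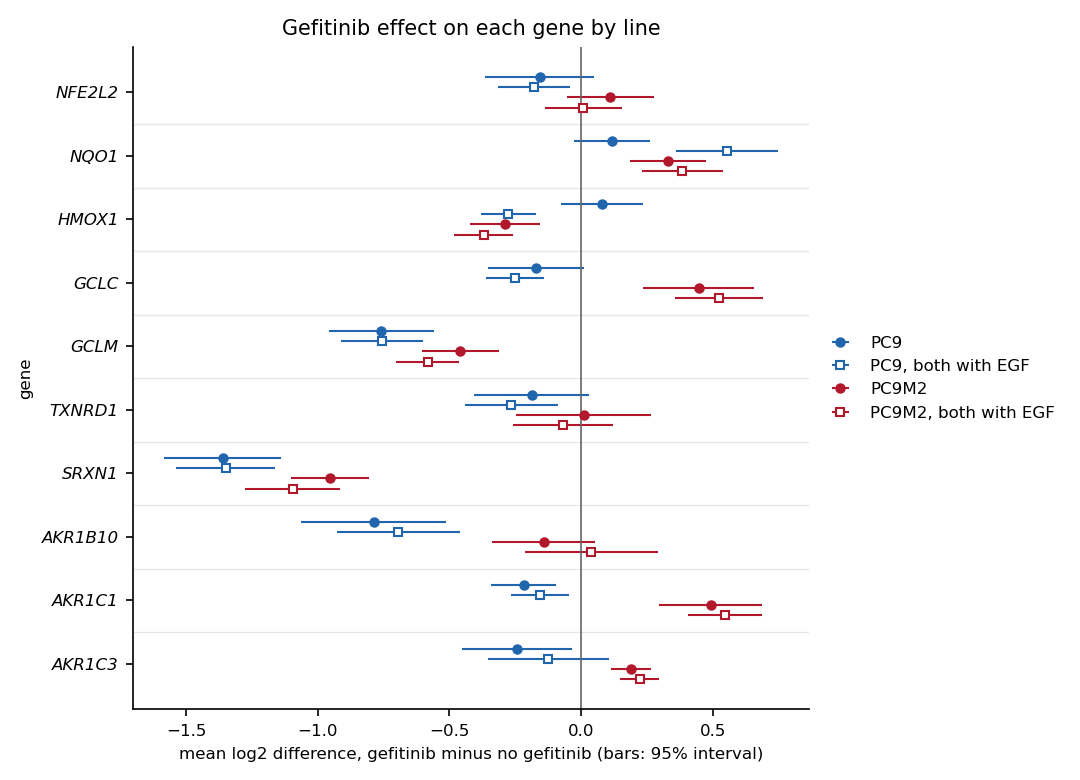
Mean log2 difference between cells with and without gefitinib (x axis) for each gene (y axis), over 26 matched time points (25 where a spot was removed), with 95% intervals as bars. Filled circles are courses without EGF and open squares courses with EGF in both arms. SRXN1 and GCLM lie left of 0 in all 4 comparisons, and GCLC and AKR1C1 lie left of 0 in PC9 and right of 0 in PC9M2.

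Whether the effect of the drug differed between the lines was tested directly, as the difference of the 2 effects at each time point (PC9M2 minus PC9). It was called higher for 7 of the 10 genes, lower for HMOX1, and not called for NFE2L2 and TXNRD1, while 17% of all genes were called higher and 16.9% lower. The median over the 10 genes was 0.35, against 0.01 over all genes. The differences were largest for AKR1C1 (0.71 ± 0.13, above 0 at 21 of 25 time points, limma adjusted p 0.00013) and GCLC (0.62 ± 0.12, 21 of 26, limma adjusted p 0.00027). SRXN1 fell less in PC9M2 (0.41 ± 0.07, 23 of 26, limma adjusted p 5.82e-05), and GCLM likewise (0.30 ± 0.09, 19 of 26, limma adjusted p 0.012). AKR1B10 gave 0.61 ± 0.20, AKR1C3 gave 0.42 ± 0.11 and NQO1 gave 0.21 ± 0.08, with limma adjusted p of 0.018, 0.0033 and 0.042. For HMOX1 the difference was -0.37 ± 0.08, below 0 at 23 of 26 time points (limma adjusted p 0.0011).

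How firm these differences are varied between the genes. With the variance inflated for the correlation of successive time points, AKR1C1, GCLC, SRXN1 and AKR1C3 kept their calls, and HMOX1 (adjusted p 0.054), NQO1 (0.091), GCLM (0.12) and AKR1B10 (0.66) lost theirs. For AKR1C3 the difference was 0.11 and uncalled with normexp background correction. Without the 11 h time point the difference for NQO1 was 0.19 (limma adjusted p 0.069).

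For some of the genes the gefitinib effect changed over the day, at a share near that of all genes. A spline over time was called for 5 of 10 genes in PC9 (NQO1, HMOX1, GCLM, SRXN1 and AKR1B10), where 52.3% of all genes were called, and for 6 of 10 in PC9M2 (NFE2L2, NQO1, HMOX1, GCLM, SRXN1 and AKR1B10), where 45.5% were. Mean effects over 0 to 6 h, 7 to 12 h, 13 to 18 h and 19 to 24 h describe the shapes.

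For SRXN1 the deficit grew from window to window. In PC9 the 4 window means were -0.78, -1.19, -1.58 and -2.08, from -0.29 at 0 h to -2.23 at 24 h. In PC9M2 they were -0.60, -0.90, -0.96 and -1.47, ending at -1.72. The sign was negative at every time point in both lines. For GCLM in PC9 the means were -0.17, -0.85, -1.05 and -1.16, with every time point from 7 h on lower, and in PC9M2 they were -0.28, -0.24, -0.45 and -0.93.

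For AKR1B10 the early values in PC9 are limited by saturation. All 6 PC9 gefitinib arrays from 0 h to 4 h were saturated for this gene, as were 10 untreated arrays, so its early difference cannot be read there. In PC9 its effect was 0.09 over 0 to 6 h and then -0.93, -1.12 and -1.54, with every measured time point from 5 h on lower. In PC9M2 it began at -0.62 and -0.25 and went to 0.40 and 0.07. The small mean effect of AKR1B10 in PC9M2 was thus made of an early deficit (-0.51 over the first 13 time points) and a later excess (0.22 over the last 13, limma adjusted p 0.027 in a fit of those alone). GCLC in PC9M2 had means of 0.23 and 0.04, and then 0.68 and 0.90, and its spline was called only without the 11 h time point (limma adjusted p 0.0074). HMOX1 in PC9 was higher with the drug at mid-course (0.06, 0.45 and 0.14) and lower from 18 h on (-0.32 over 19 to 24 h), whereas in PC9M2 its means were -0.05, -0.16, -0.45 and -0.58. NQO1 in PC9 had a positive mean in the last window, 0.58, and was higher at every time point from 19 h on.

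**Figure D3:**
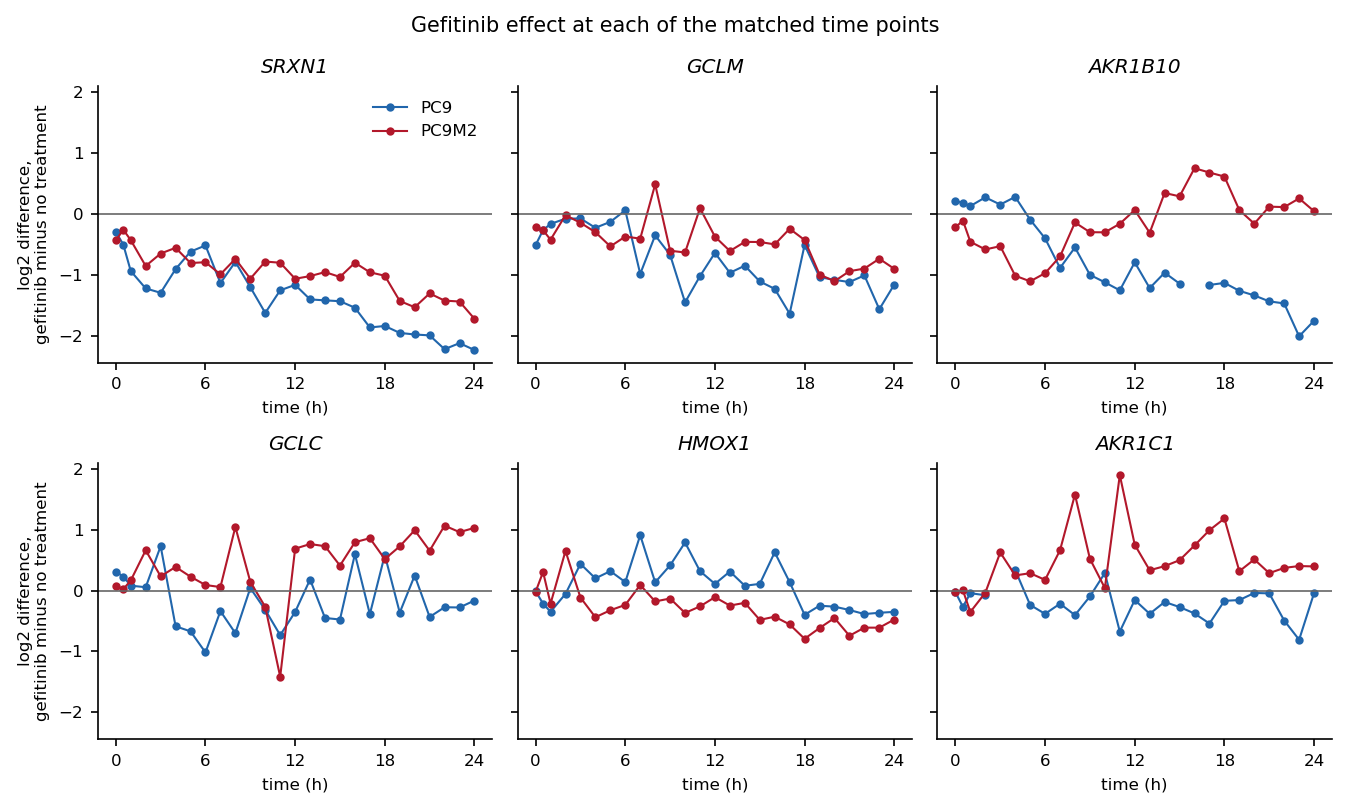
Log2 difference between cells with and without gefitinib (y axis) at each time point (h, x axis) for 6 of the genes, in PC9 (blue) and PC9M2 (red), without EGF and with 1 pair of arrays per point. The SRXN1 effect deepens in both lines, to -2.23 in PC9 and -1.72 in PC9M2 at 24 h, and the AKR1B10 points run downward in PC9, where its gefitinib arrays were saturated from 0 h to 4 h, and upward in PC9M2.

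A second pair of courses per line, with EGF in both arms, compared the drug on other arrays. These arrays shared slides and time points with the courses without EGF, so they are not an independent repeat. In PC9, gefitinib with EGF against EGF alone lowered 8 genes, raised NQO1 and left AKR1C3 uncalled (-0.12), where 39% of all genes were higher and 39.9% lower. SRXN1 fell by 1.35, GCLM by 0.76 and AKR1B10 by 0.69 on the log2 scale, close to their changes without EGF. NQO1 rose by 0.55 ± 0.09 (limma adjusted p 5.59e-06), higher at 23 of 26 time points. HMOX1 (-0.28), TXNRD1 (-0.26), GCLC (-0.25), NFE2L2 (-0.18) and AKR1C1 (-0.16) were called lower, and with the variance inflated for the correlation of successive time points AKR1B10 (adjusted p 0.057), NFE2L2 (0.091) and AKR1C1 (0.094) lost their calls.

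In PC9M2 with EGF, the genes called were GCLC (0.52), AKR1C1 (0.55), NQO1 (0.38) and AKR1C3 (0.22), all higher, and SRXN1 (-1.10), GCLM (-0.58) and HMOX1 (-0.37), all lower. These are the 7 genes called without EGF, in the same directions, and the background was 36.7% higher and 37.8% lower. The single SRXN1 time point at which the drug array was higher was 0.5 h (0.50), where the 2 arrays go against their labels. Without that time point the 7 calls stood, and with the inflated variance NQO1 lost its call (adjusted p 0.12). The difference of the effects with EGF was called higher for NFE2L2 (0.19), GCLC (0.77), GCLM (0.17), SRXN1 (0.25), AKR1B10 (0.73), AKR1C1 (0.70) and AKR1C3 (0.35), and lower for NQO1 (-0.17), where 22.9% of all genes were higher and 25.7% lower. With the variance inflated for the correlation of successive time points, NFE2L2 (adjusted p 0.0502), NQO1 (0.096), GCLM (0.29) and AKR1B10 (0.56) lost their calls. The GCLM difference with EGF lost its call without the 0.5 h or the 11 h time point (limma adjusted p 0.058 and 0.061). The NQO1 difference had the opposite sign without EGF.

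EGF by itself changed few of the genes. In PC9 it raised HMOX1 by 0.29 ± 0.05 (24 of 26 time points, limma adjusted p 2.46e-05) and TXNRD1 by 0.22 ± 0.05 (19 of 26, limma adjusted p 0.0025), and lowered NQO1 by -0.32 ± 0.06 (23 of 26, limma adjusted p 0.00013). Of all genes, 11.3% were higher and 14.3% lower. In PC9M2, HMOX1 was again higher, by 0.16 ± 0.04 (22 of 26, limma adjusted p 0.018), and GCLC was lower by -0.19 ± 0.06 (20 of 26, limma adjusted p 0.035), where 4.09% of all genes were higher and 5.04% lower. HMOX1 was the gene called in both lines. No EGF difference in either line exceeded 0.32 in size, and none of these calls was kept when the courses were compared without pairing by time. With the inflated variance, HMOX1 and TXNRD1 in PC9 kept their calls, and NQO1 in PC9 (adjusted p 0.12) and HMOX1 (0.21) and GCLC (0.074) in PC9M2 lost theirs.

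The lines were then compared under each treatment, which uses the same arrays as the comparisons above, so that these sets of values are not independent. Without treatment, 7 of the 10 genes were lower in PC9M2 than in PC9, GCLC was higher, and NQO1 and AKR1C1 were uncalled. Of all genes, 31.1% were higher and 37% lower, and the median difference was -0.43 for the 10 genes and -0.05 for all. GCLM was lower in PC9M2 at 26 of 26 time points, by -0.77 ± 0.08 (limma adjusted p 1.76e-09), with medians of 12.34 and 13.05. HMOX1 was lower at 25 of 26, by -0.77 ± 0.10 (limma adjusted p 8.38e-08), with medians of 13.04 and 13.82. AKR1B10 was lower at 25 of 26, by -0.45 ± 0.07 (limma adjusted p 2.14e-06). For this gene 10 untreated PC9 arrays were saturated and no untreated PC9M2 array was, so the size of its difference is uncertain.

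GCLC stood alone on the other side. It was higher in PC9M2 at 23 of 26 time points, by 0.79 ± 0.12, which is 1.73-fold (limma adjusted p 1.78e-06), with medians of 12.42 and 11.90. NFE2L2 (-0.45), TXNRD1 (-0.45), SRXN1 (-0.41) and AKR1C3 (-0.37) made up the rest of the lower genes. With the variance inflated for the correlation of successive time points, NFE2L2 (adjusted p 0.14), TXNRD1 (0.23) and AKR1C3 (0.085) lost their calls. NFE2L2 was lower in the first part of the course (-0.92 over the first 13 time points), and its means were -0.24 over 13 to 18 h and 0.37 over 19 to 24 h. TXNRD1 lost its call without the 0.5 h time point (-0.39, limma adjusted p 0.057). AKR1C3 was -0.15 and uncalled without saturated spots, and higher in PC9M2 with 75th percentile scaling (0.76) and with normexp background correction (0.26), so its direction between the lines is not settled here. For AKR1C1 the probes disagreed, with 0.15 uncalled for the probe of largest variance and -0.44 and -0.22, both called lower, for the other 2.

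With gefitinib the picture between the lines was different. NQO1, GCLC and AKR1C1 were higher and HMOX1 and GCLM lower in PC9M2, where 30.7% of all genes were higher and 34.3% lower. GCLC was higher at 26 of 26 time points, by 1.41 ± 0.10, which is 2.66-fold (limma adjusted p 1.41e-13). HMOX1 was lower at 25 of 26, by -1.14 ± 0.10 (limma adjusted p 1.82e-11). AKR1C1 was higher by 0.80 ± 0.19 (limma adjusted p 0.00056), at 18 of 26 time points, made of -0.06 over the first 13 and 1.67 over the last 13. Its other 2 probes gave 0.32, uncalled, and 0.30. With the variance inflated for the correlation of successive time points, GCLC and HMOX1 kept their calls, and AKR1C1 (adjusted p 0.36), NQO1 (0.31) and GCLM (0.067) lost theirs. SRXN1, lower in untreated PC9M2, differed by a mean of -0.01 under the drug (interval -0.20 to 0.19). That mean was made of -0.34 over the first 13 time points and 0.33 over the last 13.

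With EGF, NQO1 and GCLC were higher in PC9M2 and all the others but AKR1C1 lower, where 32.8% of all genes were higher and 37% lower. AKR1C3 turned to 0.68 higher with 75th percentile scaling, and the other 2 AKR1C1 probes were called lower (-0.54 and -0.37). With the variance inflated for the correlation of successive time points, the calls for HMOX1, GCLM and AKR1B10 remained of these 9. For AKR1B10, 9 of the PC9 arrays with EGF alone were saturated. With EGF and gefitinib, GCLC (1.25, 26 of 26 time points) and AKR1C1 (0.61, with 0.22 uncalled and 0.26 for its other probes) were higher and HMOX1 (-0.99) and GCLM (-0.58) lower, where 31.5% were higher and 36.2% lower. The AKR1C1 call was lost with the inflated variance (adjusted p 0.48). In mean difference, HMOX1 and GCLM were lower and GCLC higher in PC9M2 under all 4 treatments. The GCLC call with EGF and the GCLM call with gefitinib were among those lost with the inflated variance. Without gefitinib the GCLC excess was larger early. It was 1.15 over the first 13 time points and 0.44 over the last 13 untreated, and 0.83 and 0.13 with EGF. With gefitinib alone it was 1.48 and 1.35. In order of its median level, GCLC was highest in PC9M2 with gefitinib (13.12), then PC9M2 with both agents (12.98), untreated PC9M2 (12.42) and PC9M2 with EGF (12.27), and the 4 PC9 courses followed between 11.57 and 12.01. The 2 PC9M2 drug courses overlap in range, as do all neighbours in this order. For none of the 10 genes were the ranges of 2 compared courses fully separate, which held for 0% to 4.84% of all genes depending on the comparison.

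**Figure D4:**
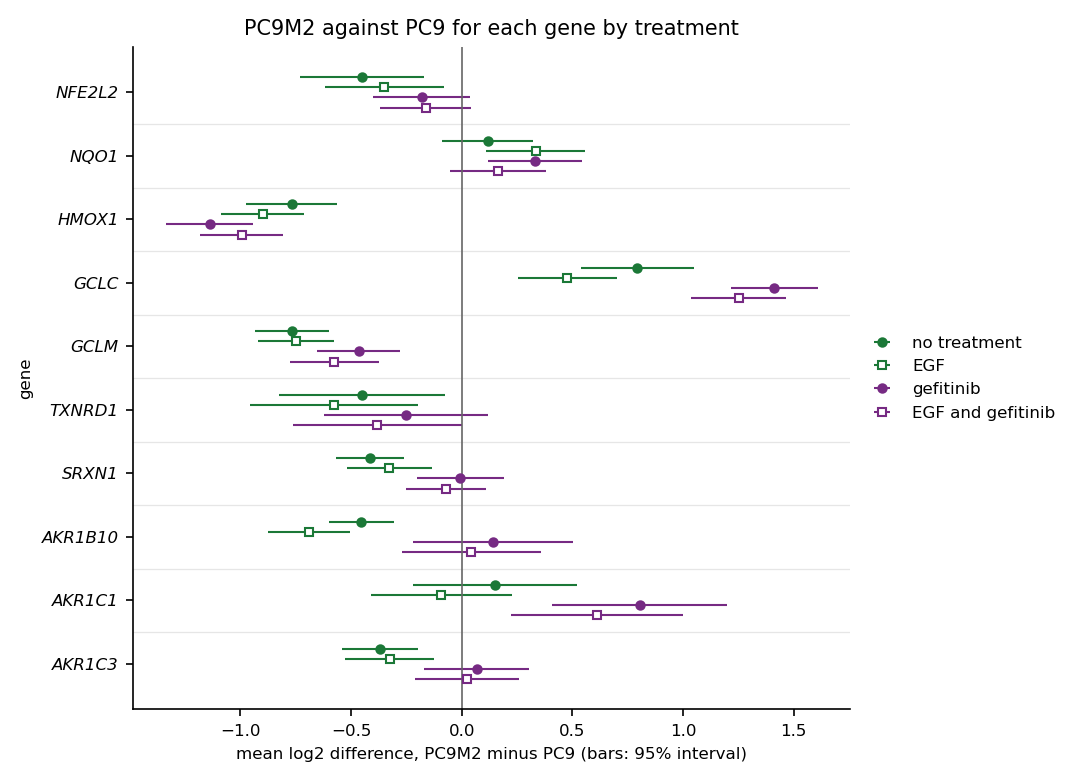
Mean log2 difference between PC9M2 and PC9 (x axis) for each gene (y axis) under each of the 4 treatments, over 26 matched time points (25 where a spot was removed), with 95% intervals as bars. GCLC lies right of 0 and HMOX1 and GCLM left of 0 under every treatment, and the SRXN1 and AKR1B10 intervals lie left of 0 only in the courses without gefitinib.

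The genes also moved with time in cells that received nothing. In untreated PC9 a spline over time was called for 8 of 10 genes, all but NFE2L2 and GCLC, and in untreated PC9M2 for 6 of 10 (NFE2L2, HMOX1, GCLC, GCLM, SRXN1 and AKR1B10), against 66.3% and 67.2% of all genes. TXNRD1 had the widest fitted range in PC9, 2.23. Its measured level went from 12.46 at 0 h down to 10.00 at 13 h and was 12.31 at 24 h. In PC9M2 its fitted range was 0.35, uncalled. AKR1C1 went from 11.97 at 0 h to 10.30 at 24 h in PC9. HMOX1 climbed in both lines, from 13.44 to 13.96 in PC9 with its highest value of 14.66 at 19 h, and from 12.05 to 13.11 in PC9M2. GCLC in PC9M2 began at 13.50 and was at 12.34 by 24 h, with its lowest value of 11.85 at 12 h. Without the 11 h time point, NQO1 and AKR1C1 were also called in PC9M2 (limma adjusted p 0.036 and 0.0085).

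The wider pathway was described with gene lists of NRF2 control and of the processes its targets serve, and no test of a list was made. The counts stand against 35.1% of all genes higher and 37.2% lower with gefitinib in PC9, and 32.6% and 34.2% in PC9M2. Among 13 genes that control NRF2, gefitinib lowered 7 and raised 3 in PC9, and lowered 6 and raised 3 in PC9M2. NFE2L3, which encodes the related factor NRF3, fell by 1.62 in PC9 and 0.89 in PC9M2 (log2), and MAFF, a small MAF partner, by 1.39 and 0.72. GSK3B, a kinase that marks NRF2 for another ubiquitin ligase, fell by 1.00 in PC9, and CUL3 by 0.51 in PC9M2. KEAP1 was higher with the drug by 0.45 (24 of 26 time points) in PC9 and 0.23 (23 of 26) in PC9M2. BACH1 was lower by -0.38 and -0.24, and SQSTM1, whose protein sequesters KEAP1, gave -0.02 uncalled in PC9 and 0.49 higher in PC9M2.

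The glutathione genes split, with 5 higher and 7 lower of 15 in PC9 and 4 and 5 of 15 in PC9M2. SLC7A11, the cystine importer that supplies glutathione synthesis, fell by 2.06 in PC9, which is 4.18-fold, and by 1.51 in PC9M2, each at 24 of 26 time points. GPX4, the peroxidase that clears lipid peroxides, rose by 0.67 in PC9M2, and ABCC3 and ABCC1, exporters of glutathione conjugates, fell by 0.81 and 0.79 in PC9. CHAC1, which degrades glutathione, fell by 0.57 in PC9M2. Of 10 thioredoxin genes, 6 fell and 3 rose in PC9, and 7 fell and 3 rose in PC9M2. Among them the peroxiredoxin genes PRDX2 (-0.88 and -0.61) and PRDX4 (-0.86 and -0.58) were lower in both lines and TXNRD2, the mitochondrial thioredoxin reductase, was higher (1.06 and 0.82).

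Of 6 genes that supply NADPH, 3 fell and 2 rose in PC9, and 1 fell and 2 rose in PC9M2. Malic enzyme ME1, a known NRF2 target, fell by 0.90 and 0.76, and IDH1 rose by 0.43 and 0.52. TALDO1 fell by 0.41 in PC9 and TKT rose by 0.17 in PC9M2. Of 16 detoxification genes, 4 rose and 4 fell in PC9, and 6 rose and 4 fell in PC9M2. EPHX1, an epoxide hydrolase, rose by 0.92 and 1.21, NQO2 fell by 0.90 and 0.85, ALDH3A1 rose by 1.04 in PC9, and CBR1 fell by 0.68 in PC9M2. AKR1C4 was too dim to test.

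Of the 7 heme and iron genes, 4 rose and 1 fell in PC9, and 5 rose and 1 fell in PC9M2. SLC40A1, which encodes the iron exporter ferroportin, rose by 3.22 in PC9, which is 9.34-fold, and by 2.84 in PC9M2, at 26 of 26 time points in each. HMOX2, the constitutive heme oxygenase, fell by 1.37 and 0.84, and the ferritin heavy chain gene FTH1 rose by 0.45 and 0.56. Of 4 superoxide and peroxide genes, CAT rose by 1.25 and 1.02 and SOD2 fell by 0.85 and 0.63, and SOD3 was 0.51 higher in PC9 and -0.25 lower in PC9M2.

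Between the untreated lines, 12 of the 16 detoxification genes were lower in PC9M2 and 3 higher, where 37% of all genes were lower and 31.1% higher. ALDH1A1, a retinal dehydrogenase, was lower by -2.08 and CYP4F11 by -1.21, and PIR was higher by 1.56. Of the 15 glutathione genes 7 were lower and 5 higher, and the gastrointestinal glutathione peroxidase GPX2 was 4.11 higher, which is 17.2-fold, at 26 of 26 time points. MGST1 was lower by -1.02 and GSTP1 higher by 0.97. In the control list 6 of 13 were lower, among them MAFF (-1.46), GSK3B (-1.21), MAFG (-0.74) and SQSTM1 (-0.50), and 2 were higher, while KEAP1 (0.00) and BACH1 (-0.16) were uncalled. PRDX2 (-1.36) was 1 of 5 thioredoxin genes lower, with PRDX6 (-0.54) and PRDX5 (-0.54), and none of the 10 was higher. Among the NADPH genes, TALDO1 (-0.70) was lower and TKT (0.48) higher. SLC40A1 (-0.996) and HMOX2 (-0.66) were lower and FECH (0.79) higher among the heme and iron genes, and SOD2 (-0.56) was lower and SOD3 (1.34) and CAT (0.77) higher among the superoxide and peroxide genes.

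How far the 10 genes moved together was described by correlations over all arrays (8 courses of 26) after the mean of each course was subtracted. The points share time courses, slides and normalization, so no p is given. Of 45 pairs, 33 were positive, with a median r of 0.24. The same count over pairs of other genes was not made, so whether these genes moved together more than others was not tested. The closest pairs were GCLM with SRXN1 (r = 0.70) and SRXN1 with AKR1B10 (r = 0.65). The latter was 0.95 and 0.91 in the PC9 courses with gefitinib, without and with EGF, and 0.11 to 0.35 in the PC9M2 courses. GCLM with AKR1B10 (r = 0.49) was 0.85 and 0.80 in the same PC9 courses and between -0.05 and 0.28 in the other 6. HMOX1 had negative r in all 9 of its pairs over all arrays, from -0.61 with AKR1B10 to -0.12 with GCLC. Within single courses its sign varied, as r with GCLC was 0.34 in untreated PC9 and -0.79 in untreated PC9M2, and r with AKR1C3 was -0.75 in untreated PC9 and 0.28 in PC9M2 with both agents. GCLC was close to none of the others, with r between -0.12 and 0.21, and r with its partner subunit GCLM was 0.21. NFE2L2 correlated most with AKR1C1 (r = 0.59) and GCLM (r = 0.56), and with NQO1 at r = 0.19.

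**Figure D5:**
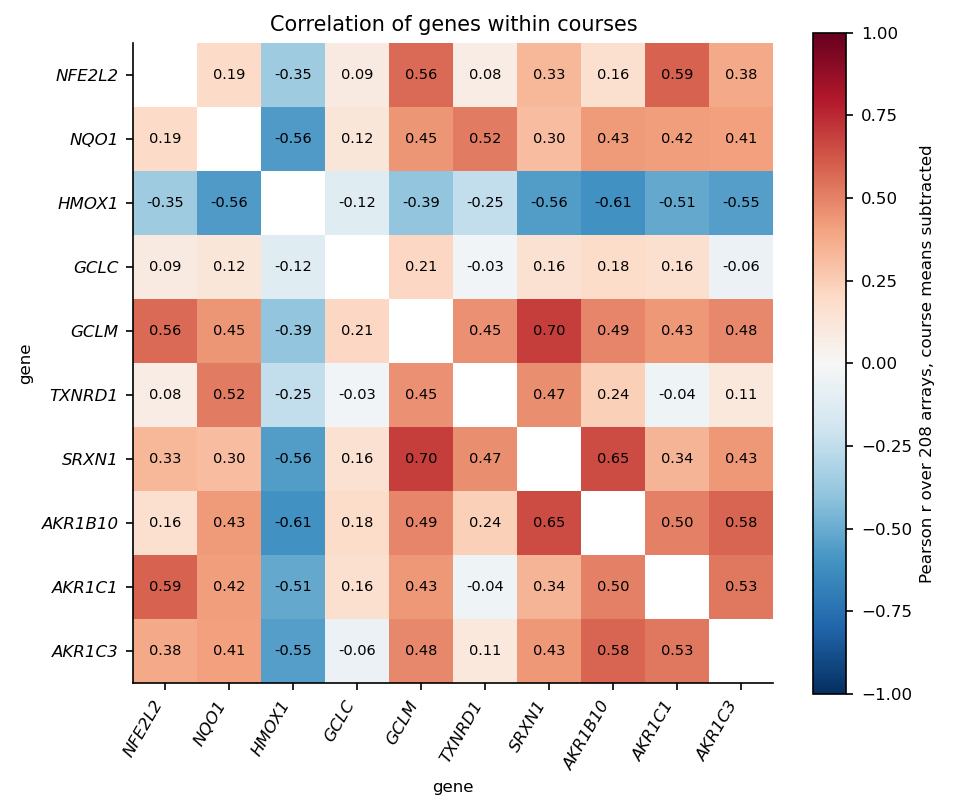
Pearson correlation of each pair of the 10 genes (rows and columns) over all arrays after subtracting each course's mean, with red for positive and blue for negative r. HMOX1 is blue against all other genes, and GCLM with SRXN1 is the reddest pair at 0.70.

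The genes of the whole array whose pattern was most like each of the 10, by the same correlation, were as follows. NFE2L2 was closest to BECN1 (r = 0.81) and SDHD (0.78), and NQO1 to RCN1 (0.78) and MTRR (0.76). HMOX1 was closest to TDRD7 (0.84) and TUBB3 (0.79). GCLC was closest to SEL1L3 (0.70) and ITCH (0.69), and GCLM to NFE2L3 (0.80) and COG5 (0.79). TXNRD1 was closest to VIRMA (0.85) and ITGB1 (0.84), and SRXN1 to AIFM2 (0.85) and GSK3B (0.84). AKR1B10 was closest to SLC27A2 (0.77) and GABBR2 (0.76), AKR1C1 to TIMM10 (0.81) and UQCC2 (0.79), and AKR1C3 to TALDO1 (0.74) and RPSA (0.73).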

How the data were processed

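RNA of 208 samples was hybridised to one-colour (Cy3) Agilent arrays, read with Feature Extraction (10.5.1.1 per the file headers, where the methods name another version). The deposited files hold fluorescence intensity per spot, already background-corrected by the scanner software, and a deposited table holds normalized intensity of the same arrays, which correlated with quantile-normalized scanner values at a median r of 1. Here the processed intensities were quantile-normalized, floored at 1 and converted to log2, outlier spots (0.0793% of values) were removed, and each gene was represented by its probe of largest variance. Genes well above background on at least 13 of 26 arrays of a course were tested with limma (3.58.1) in R (4.3.3), on differences paired by time point. Change over time was tested with natural splines (4 degrees of freedom). The lag-1 correlation of successive differences was used to inflate the variance in an alternative. The number of arrays limits the precision, and there was 1 array per time point. The procedures were tested on simulated data with independent noise on each array. That simulation cannot show how the tests behave where successive time points are correlated, as they were for some of these genes.

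Saturated spots were kept. Normexp used the median spot signal. Alternatives were scaling, background correction, probe choice, filters, floor, saturated spots, pairing, autocorrelation, scan day, the methods' t-test, fewer time points, and, chosen after seeing the data, leaving out 0.5 h or 11 h. Annotation differed on 4 arrays, and that of the first array was used. The members and gene lists were chosen with earlier results of these data known. The text names all 10 genes, KEAP1, BACH1 and SQSTM1, up to 3 called genes of largest difference per list, line and comparison without EGF, the 2 closest genes of each member, and DUSP6. A gene that this rule also names is not reported here.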

Additional observations from a re-analysis of the deposited data

Results flagged for a closer look

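Gefitinib acted unequally on several genes in the 2 lines, by the test of the effect in PC9M2 minus that in PC9 (mean log2 difference over matched time points), and no explanation was tested. Without EGF it was 0.21 for NQO1, -0.37 for HMOX1, 0.62 for GCLC, 0.30 for GCLM, 0.41 for SRXN1, 0.61 for AKR1B10, 0.71 for AKR1C1 and 0.42 for AKR1C3. With EGF in both arms it was 0.19 for NFE2L2, -0.17 for NQO1, 0.77 for GCLC, 0.17 for GCLM, 0.25 for SRXN1, 0.73 for AKR1B10, 0.70 for AKR1C1 and 0.35 for AKR1C3. GCLC, GCLM, SRXN1, AKR1B10, AKR1C1 and AKR1C3 were called in both with the same sign. NQO1 was called in both with opposite signs. With the variance inflated for the correlation of successive time points, GCLM, AKR1B10 and NQO1 lost their calls in both.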

How the results depend on the processing

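The counts of genes called depended most on how time was handled. The share of all genes called under each alternative is not given beside the counts in this section. They therefore do not show whether a change in count is particular to these genes. Without the replicate block, that is, with courses compared unpaired, 3 in place of 5 were called for gefitinib in PC9, 4 in place of 9 with EGF, 0 in place of 3 (PC9) and 0 in place of 2 (PC9M2) for EGF, and 4 and 3 in place of 8 and 8 for the difference of the effects without and with EGF. With the variance inflated for autocorrelation, 0 were called for EGF in PC9M2, 5 of 8, 2 of 5 and 3 of 9 between the lines (untreated, gefitinib, EGF), and 4 and 4 for the effect differences. With time points 3 h apart, which leaves fewer points, counts were 3 for gefitinib in PC9, 0 and 0 for EGF, 4 and 4 between the lines (untreated, EGF), 1 and 2 for the effect differences, 0 and 0 for change over time in untreated cells, and 0 and 2 for that of the gefitinib effect in PC9 and PC9M2.

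In the first 13 time points, counts were 2 and 4 for gefitinib in PC9 and PC9M2, 4 with EGF in PC9, 0 for EGF in PC9M2, 7 between the lines with both agents (main 4), and 0 and 3 for the effect differences. In the last 13 they were 8 and 8 between the lines with gefitinib and with both agents. A required difference of 1 left 1 and 0 for gefitinib in PC9 and PC9M2, 1 and 1 with EGF, 0 and 0 for EGF, 0, 2, 0 and 1 between the lines, and 0 and 0 for the effect differences. A fitted range of at least 1 left 3 (PC9) and 2 (PC9M2) for the gefitinib effect over time. For EGF in PC9M2, 75th percentile scaling gave 1, scan day as a block 1 and the methods' t-test without adjustment 4. Scan day as a block gave 3 for the effect differences with EGF.

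Signs reversed for AKR1C3 under gefitinib in PC9 (0.0195 with 75th percentile scaling, 0.0455 with normexp, 0.0035 with points 3 h apart) and between the lines (0.76 and 0.26 untreated, 0.68 with EGF at the 75th percentile, -0.41 in the first 13 time points with both agents). AKR1C1 between untreated lines was -0.22 by the probe of highest mean, -0.44 and -0.22 by its other probes and -0.59 in the first 13, and -0.0624 (gefitinib) and -0.23 (both agents) in the first 13 and 0.53 (EGF) in the last 13. AKR1B10 was 0.22 in the last 13 for gefitinib in PC9M2, -0.46 in the first 13 with EGF, -0.56 and -0.66 between the lines with gefitinib and both agents, and -0.19 and -0.16 for the effect differences, all in the first 13. In the last 13, TXNRD1 was -0.30 for gefitinib in PC9M2, NFE2L2 0.0204 and 0.17 between the lines (untreated, EGF), and SRXN1 0.33 and 0.25 (gefitinib, both agents). Beyond the fewer time points, the cause was not tested.

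Of the single-gene results over all alternatives, 2705 kept their side of the threshold, 286 lost the call, 60 gained it and 25 reversed. The 2705 include 45 differences that changed sign but were called in neither fit. Leaving out a replicate was not possible, as each time point has 1 array. Low signal was not limiting, as all 13 probes were above background on every array. At the upper end, saturation limited some PC9 values of SRXN1, AKR1B10, AKR1C3 and the AKR1C1 probes not used in the main values.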
